A study of Arabidopsis thaliana with 9 samples.

Results

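In germinating Arabidopsis thaliana seeds, 19 probe sets of 22746 non-control probe sets had a mean signal that stepped down from ARF10 seeds through wild-type Col-0 seeds to mARF10 seeds. A probe set is a group of array probes for the transcripts of 1 gene or, for some probe sets, of several genes. Its value is a log2 signal, so a difference of -1 is a halving. The 19 were chosen on the values themselves. Their mean over all 9 arrays was at least 5.72, the mARF10 mean lay at least 0.6 below the ARF10 mean, and the highest mARF10 array lay below the lowest ARF10 array. The Col-0 mean also had to lie between 0.25 and 0.75 of the way from the ARF10 mean (0) to the mARF10 mean (1), a value called the Col-0 position here. These conditions chose 23 probe sets, and 4 genes were then left out by name: SIR, SAPX, AT5G45650 and AT5G59130. As the conditions used the arrays of all 3 genotypes, the levels and differences of the 19 are descriptions. Calls from a fit over all tested probe sets are given further on, and they are no independent test of the 19.

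Col-0 is the wild type. Plants of the ARF10 genotype carried the gene AUXIN RESPONSE FACTOR10 as a transgene under its own upstream region (3 kb), its coding region (2.3 kb) joined to the green fluorescent protein. In mARF10 seeds the same transgene carried 4 mutations in the target site of microRNA160. Each genotype had 3 arrays, which the labels call independent biological replicates, and each replicate held 3 seed lots. All seeds lay in water for 3 days at 4 °C in the dark and for 22 h at 22 °C in the light. How many transformed lines stood behind the transgenic seeds is not given in the sources used here.

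Auxin response factors are transcription factors that bind the promoters of auxin-regulated genes. MicroRNA160 directs the cleavage of the transcripts of ARF10 and its close relatives, and a mutated target site is meant to spare the transgene's transcript from it. A germinating seed takes up water, breaks down its stored protein and oil, and moves the released nitrogen and carbon into new proteins, nucleotides and walls, while transcripts of seed maturation decline.

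Col-0 replicate 2 stood apart from the other arrays. Over the tested probe sets it correlated with them at 0.967 to 0.982, while all pairs without it ran from 0.985 to 0.997. The Col-0 positions of the 19 are therefore given with and without it further on. Whole seeds were measured, so fewer cells of a type and less RNA per cell cannot be told apart. Markers of single tissues were sparse among the named probe sets. Of the seed coat and endosperm markers 1 of 10 was measured, BAN. Its level was 6.46 to 6.68 on the ARF10 arrays, 6.53 to 6.55 on the Col-0 arrays and 6.33 to 6.63 on the mARF10 arrays. Of the vascular and guard cell markers 3 of 7 were measured, MUTE, SPCH and FMA. All 3 are guard cell markers, so no vascular marker was measured. Their means were 6.60 to 6.75, 6.37 to 6.58 and 6.41 to 6.54 in the same order. Singly, MUTE, SPCH and FMA differed between mARF10 and ARF10 by -0.39, -0.15 and -0.04. The 1 measured shoot meristem marker of 3 lay between 5.77 and 6.34 on all arrays. The part of tissue make-up in the pattern was not tested.

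The 19 probe sets differed between mARF10 and ARF10 by -2.03 to -0.60, with a median of -0.75. In 3 of them the difference was at least 2-fold, and in the other 16 it was smaller. Averaged over the 19, the log2 signal was 8.93, 8.76 and 8.94 on ARF10 replicates 1 to 3, 8.44, 8.29 and 8.66 on the Col-0 replicates and 7.92, 8.07 and 8.09 on the mARF10 replicates. On this average every Col-0 array lay below every ARF10 array and above every mARF10 array. The conditions chose the 19 for group means in that order, so nothing is read from it. Taken singly, 4 of the 19 had every Col-0 array between the other genotypes. The mean over all tested probe sets stayed between 8.37 and 8.41. The annotation named 1 gene for 10 of the 19 probe sets. The other 9 are unnamed here and go by their probe set IDs.

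**Figure D1:**
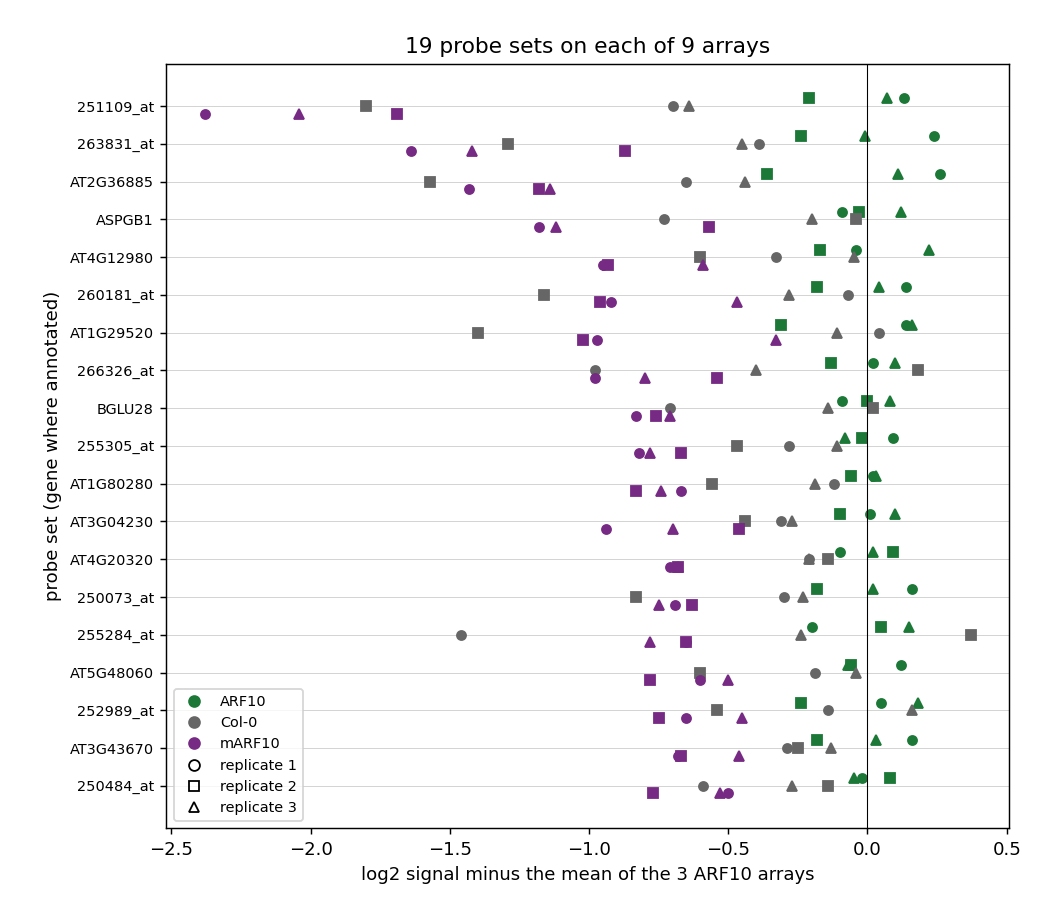
Log2 signal of each of the 19 probe sets on each array, less the mean of its 3 ARF10 arrays (horizontal axis); colours mark genotypes, symbols mark replicate numbers. The mARF10 arrays lie left of the ARF10 arrays in every row by the choice of probe sets, while single Col-0 arrays range from above the ARF10 mean to below the mARF10 arrays.

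Among the genes of nitrogen and nucleotide metabolism, ASPGB1 encodes asparaginase B1, which splits asparagine, a transport form of nitrogen, into aspartate and ammonium. Its log2 signal was 11.30, 11.36 and 11.51 on ARF10 replicates 1 to 3, 10.66, 11.35 and 11.19 on the Col-0 replicates and 10.21, 10.82 and 10.27 on the mARF10 replicates. The mean was 11.39 ± 0.11 (SD, n = 3) in ARF10, 11.07 ± 0.36 in Col-0 and 10.43 ± 0.33 in mARF10 seeds, a difference between mARF10 and ARF10 of -0.95. The Col-0 arrays were spread over both neighbours, with replicate 2 among the ARF10 arrays and replicate 1 below the highest mARF10 array. ASPGA1, the other asparaginase gene, was at 10.19 ± 0.06, 10.03 ± 0.39 and 10.13 ± 0.03 in ARF10, Col-0 and mARF10 seeds, a difference of -0.07 between mARF10 and ARF10.

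AT4G20320 belongs to the CTP synthase family, whose enzymes make the cytidine nucleotide CTP from UTP. It gave 7.09, 7.28 and 7.21 on the ARF10 arrays, 6.98, 7.05 and 6.98 on the Col-0 arrays and 6.48, 6.51 and 6.51 on the mARF10 arrays. No array of one genotype overlapped another, and the SD was 0.04 in Col-0 and 0.01 in mARF10 seeds. Col-0 lay 0.19 below ARF10 and mARF10 lay 0.51 below Col-0, so the larger step was the one from Col-0 to mARF10. Of the other CTP synthase genes, AT1G30820 differed between mARF10 and ARF10 by -0.38, AT2G34890 by -0.12 and AT4G02120 by -0.08.

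In the longer list of nucleotide synthesis genes, 5 of 26 were measured. AT4G20320 was the 1 that limma called lower in mARF10, as it did 0.0942% of all tested probe sets, and as the conditions had chosen it on this comparison, nothing is read from that count. The median difference of these 5 was -0.12, against -0.02 over all 15922 tested probe sets. The 5 comprised AT4G20320, the other CTP synthase genes given above and PYRB. As a chosen gene was among them, nothing is read from this median either. PYRB, which encodes aspartate carbamoyltransferase of pyrimidine synthesis, was at 10.90 ± 0.04 in ARF10 and 10.90 ± 0.14 in mARF10 seeds.

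AT3G04230 encodes a protein of the cytosolic ribosomal S16 family, a part of the small ribosomal subunit. The ARF10 arrays read 11.04, 10.93 and 11.13, the Col-0 arrays 10.72, 10.59 and 10.76, and the mARF10 arrays 10.09, 10.57 and 10.33. All 3 Col-0 arrays lay between the arrays of the transgenic genotypes, although Col-0 replicate 2 was only just above mARF10 replicate 2. The steps were nearly equal, 0.34 from ARF10 to Col-0 and 0.37 from Col-0 to mARF10. The other 2 genes of this family are unnamed on the array here, and whether their transcripts also bind this probe set was not tested.

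**Figure D2:**
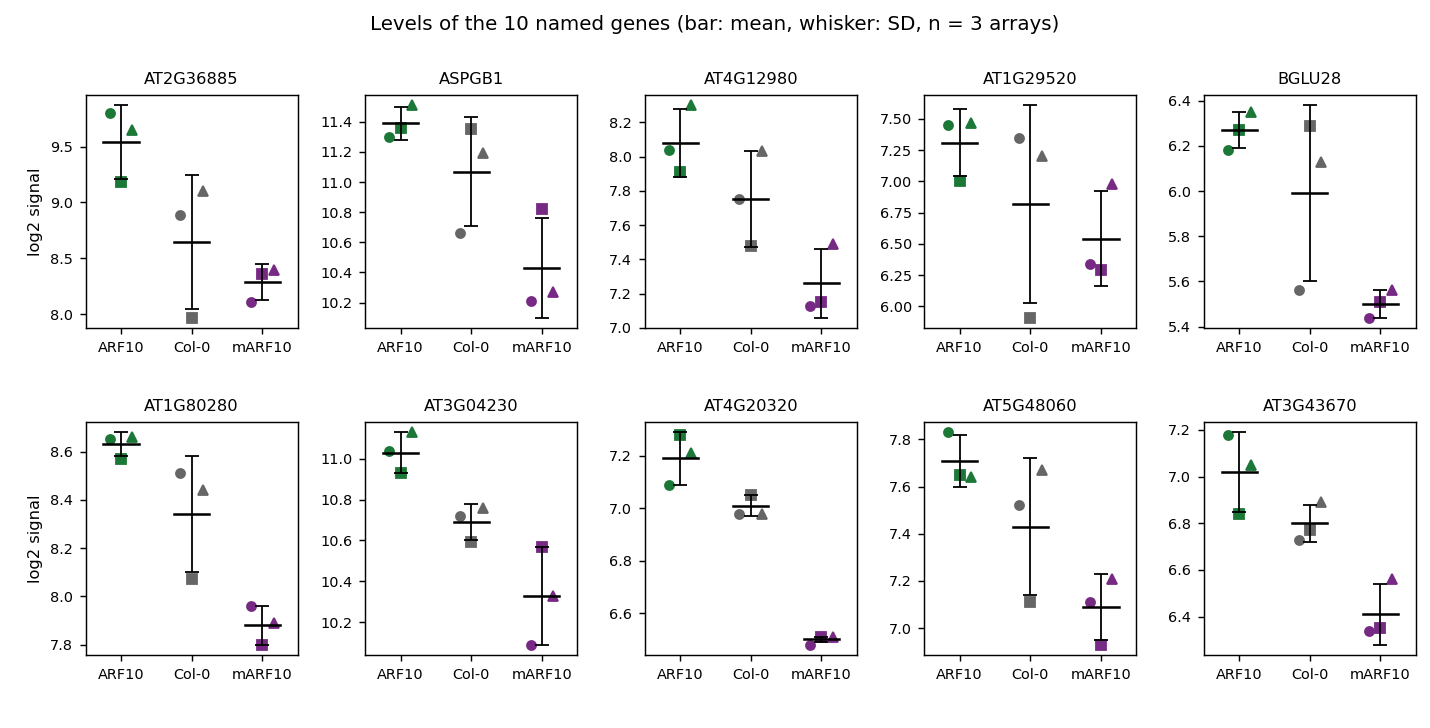
Log2 signal of the 10 named genes in ARF10, Col-0 and mARF10 seeds; circles, squares and triangles are replicates 1, 2 and 3, the bar is the mean and the whisker the SD (n = 3), and vertical axes differ and do not start at 0. Col-0 is narrow and between the other genotypes in AT4G20320 and AT3G04230, and it spans most of the range in BGLU28 and AT1G29520.

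Several named genes encode proteins of the membrane or the wall space. AT4G12980 belongs to the cytochrome b561 and DOMON family, membrane proteins that pass electrons across the plasma membrane. It read 8.04, 7.91 and 8.30 on the ARF10 arrays, 7.75, 7.48 and 8.03 on the Col-0 arrays and 7.13, 7.15 and 7.49 on the mARF10 arrays. Within each numbered set of replicates the order was ARF10, Col-0, mARF10, and replicate 3 was the highest in all 3 genotypes. Col-0 replicate 3 lay above the lowest ARF10 array, and Col-0 replicate 2 lay just below the highest mARF10 array.

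For AT1G29520, of the AWPM-19-like membrane protein family first described in wheat, the values were 7.45, 7.0 and 7.47 in ARF10, 7.35, 5.91 and 7.20 in Col-0 and 6.34, 6.29 and 6.98 in mARF10 seeds. Col-0 replicates 1 and 3 lay among the ARF10 arrays and Col-0 replicate 2 below every mARF10 array, so its intermediate mean matched no single Col-0 array. Without Col-0 replicate 2 the Col-0 position dropped from 0.63 to 0.05. The related gene AT5G18970 differed between mARF10 and ARF10 by -0.45, with Col-0 at 7.66 ± 0.35 between 7.90 ± 0.14 in ARF10 and 7.45 ± 0.06 in mARF10 seeds. Its relative AT1G04560 had the opposite sign, at 10.32 ± 0.42 in ARF10, 11.28 ± 0.96 in Col-0 and 11.67 ± 0.33 in mARF10 seeds.

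AT3G43670 belongs to the copper amine oxidases, which oxidise polyamines and release hydrogen peroxide, many of them in the wall space. Its ARF10 values were 7.18, 6.84 and 7.05, its Col-0 values 6.73, 6.77 and 6.89 and its mARF10 values 6.34, 6.35 and 6.56. Col-0 was narrow here (SD 0.08), with all 3 arrays above the mARF10 arrays and replicate 3 reaching into the ARF10 range. The other 5 tested copper amine oxidase genes differed by -0.05 to 0.35.

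AT5G48060 encodes a protein of the family with multiple C2 domains and transmembrane regions, several of which sit at plasmodesmata, the channels between plant cells. It was at 7.83, 7.65 and 7.64 on the ARF10 arrays, 7.52, 7.11 and 7.67 on the Col-0 arrays and 7.11, 6.93 and 7.21 on the mARF10 arrays. Col-0 replicate 3 lay within the ARF10 range and replicate 2 within the mARF10 range. Of this family 13 genes were tested, and the other 12 differed between mARF10 and ARF10 by -0.30 to 0.09; among these was QKY, which acts in cell communication during organ growth, at -0.15.

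Enzymes of other kinds complete the named genes. BGLU28 encodes beta glucosidase 28, of a family that cuts sugars from glucosides, and it is known to be raised when sulfur is short. Its log2 signal was 6.18, 6.27 and 6.35 on the ARF10 arrays, 5.56, 6.29 and 6.13 on the Col-0 arrays and 5.44, 5.51 and 5.56 on the mARF10 arrays. Col-0 replicate 2 was level with the ARF10 arrays and replicate 1 with the mARF10 arrays. The mARF10 mean of 5.5 was below the minimum set for the mean of all arrays, so the size of its difference (-0.77) is uncertain.

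The other 7 tested beta glucosidase genes differed between mARF10 and ARF10 by -0.18 (BGLU42) to 1.75 (BGLU19). Of 14 genes known to respond to sulfur shortage, which were gathered after the values were seen, 1 other was measured. AT1G04770, known as SDI2, was at 11.39 ± 0.11 in ARF10, 11.25 ± 0.60 in Col-0 and 10.96 ± 0.17 in mARF10 seeds. In the list of sulfur assimilation genes 4 of 30 were measured. The 1 called lower by limma was SIR, the sulfite reductase gene left out above, which had met the same conditions, so nothing is read from that count either (background 0.0942%). APS3, which encodes an ATP sulfurylase, differed by -0.33, APS4 by 0.00 and CBL, which encodes cystathionine beta-lyase, by -0.01.

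AT1G80280, of the alpha/beta hydrolase superfamily, was at 8.65, 8.57 and 8.66 in ARF10, 8.51, 8.07 and 8.44 in Col-0 and 7.96, 7.80 and 7.89 in mARF10 seeds. The genotypes did not overlap, and ARF10 and mARF10 were tight (SD 0.05 and 0.08). Col-0 (SD 0.24) was pulled down by replicate 2, without which its position was 0.21 in place of 0.39.

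AT2G36885, for which the annotation gives a locus only, had the largest difference of the named genes, -1.25 or a 2.38-fold lower signal in mARF10. It read 9.80, 9.18 and 9.65 on the ARF10 arrays, 8.89, 7.97 and 9.10 on the Col-0 arrays and 8.11, 8.36 and 8.40 on the mARF10 arrays. Every Col-0 array was below every ARF10 array, and Col-0 replicate 2 was below every mARF10 array too. Its Col-0 position was the highest of the 19, at 0.71, and 0.44 without that array.

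**Figure D3:**
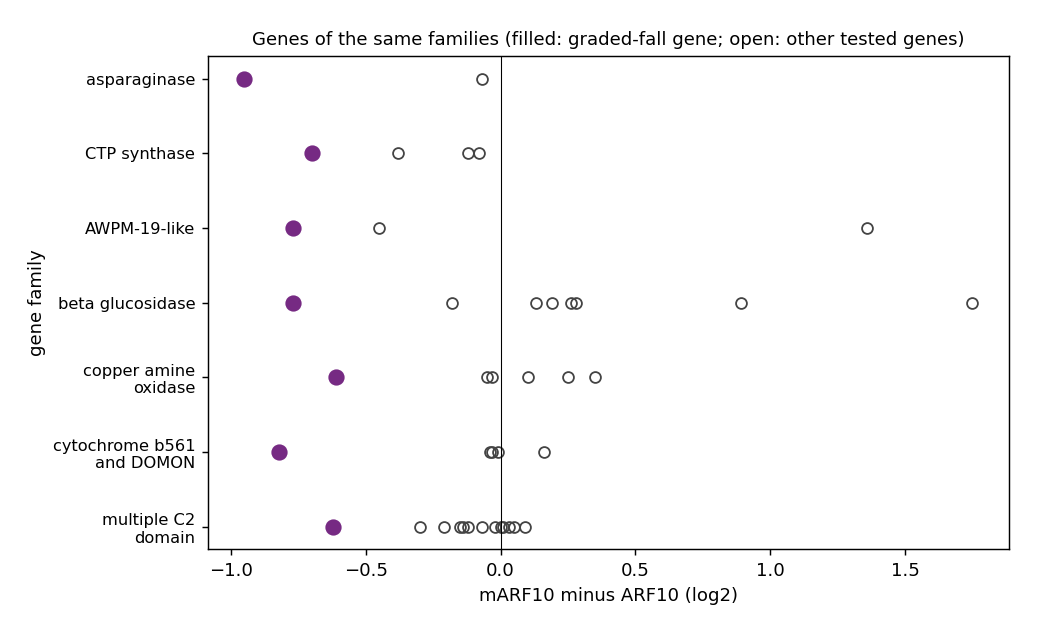
Difference between mARF10 and ARF10 (log2, horizontal axis) for tested genes of 7 families; filled points are genes of the graded set, open points the other tested family genes. The filled point is the lowest of its row in each family, and genes of the graded set were chosen for low values; open points reach 1.75 among beta glucosidases and 1.36 among AWPM-19-like genes.

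These families were gathered after the values were seen, and a gene of the graded set had been chosen for its low value in mARF10, so its place at the low end of a family is no result. The relatives, the open points in the plot of family differences, ranged from -0.45 (AT5G18970) to 1.75 (BGLU19). Of the 20 flanking protein-coding genes in the order of assembly TAIR10.1, 10 were tested, and these differed between mARF10 and ARF10 by -0.19 to 0.26, with 5 negative. BGLU15, which lies beside BGLU28, was at 0.26, and PPR596, beside AT1G80280, at -0.19.

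The unnamed probe set 251109_at had the largest difference of the 19. It gave 11.49, 11.15 and 11.43 on the ARF10 arrays, 10.66, 9.56 and 10.72 on the Col-0 arrays and 8.98, 9.67 and 9.32 on the mARF10 arrays. The mARF10 signal was 4.09-fold lower than that of ARF10, a difference of -2.03. Col-0 replicates 1 and 3 lay clear of both transgenic genotypes and replicate 2 lay within the mARF10 range.

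Next came 263831_at, at 9.32, 8.84 and 9.07 in ARF10, 8.69, 7.79 and 8.63 in Col-0 and 7.44, 8.21 and 7.66 in mARF10 seeds, a 2.48-fold lower signal in mARF10. It had the same arrangement, with Col-0 replicate 2 within the mARF10 range. A further unnamed probe set was 255305_at, at 9.78, 9.67 and 9.61, then 9.41, 9.22 and 9.58, then 8.87, 9.02 and 8.91. There no arrays of different genotypes overlapped. Differences of the other 6 unnamed probe sets ran from -0.78 (260181_at) to -0.60 (250484_at).

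The conditions fixed the grading of the means, but not the place of single Col-0 arrays. Every Col-0 array lay between the ARF10 and mARF10 arrays in 4 of the 19: AT4G20320, AT3G04230, AT1G80280 and 255305_at. Over all tested probe sets 0.333% had this arrangement in the same direction. A Col-0 array reached the ARF10 range in 10 of the 19 and the mARF10 range in 14, and both happened in 9. The share of all tested probe sets with such an overlap is not given here. Within the numbered sets, ARF10 was above Col-0 and Col-0 above mARF10 in all 3 sets for 8 of the 19, against 1.38% of all tested probe sets, in 2 sets for 9 and in 1 set for 2. The conditions used the same arrays, so nothing is read from these counts. By set, the order held for 16 with replicate 1, 10 with replicate 2 and 18 with replicate 3.

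The spread within Col-0 was wide. The median SD of the 19 was 0.35 in Col-0, 0.17 in ARF10 and 0.15 in mARF10 seeds, against 0.14, 0.08 and 0.10 over all tested probe sets. As the choice barred overlap of ARF10 and mARF10 arrays but limited only the mean of Col-0, nothing is read from the order of these SDs. Col-0 replicate 2 was the lowest Col-0 array for 12 of the 19 and replicate 1 for the other 7. Replicate 3 was the lowest for 0 of the 19. Over all tested probe sets, replicate 2 was the lowest for 39.8%, replicate 1 for 37.3% and replicate 3 for 23.0%.

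The 12 with replicate 2 lowest, 6 of them named, had a mean of 8.68, 8.02 and 8.74 on Col-0 replicates 1 to 3. They comprised AT2G36885, AT4G12980, AT1G29520, AT1G80280, AT3G04230, AT5G48060 and 6 unnamed probe sets. The 7 with replicate 1 lowest had a mean of 8.02, 8.74 and 8.51, and their named genes were ASPGB1, BGLU28, AT4G20320 and AT3G43670. As these subsets were split by their lowest Col-0 array, nothing is read from the order of those means. In 255284_at the Col-0 arrays spanned 7.95 on replicate 1 to 9.78 on replicate 2, wider than the gap between the transgenic genotypes.

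Leaving out Col-0 replicate 2 moved the median Col-0 position of the 19 from 0.48 to 0.33, with a range from -0.02 (252989_at) to 1.23 (255284_at). The position stayed within 0.25 to 0.75 for 11 of the 19, dropped below it for 6 and went above it for 2. It stayed for 11 without Col-0 replicate 1 and for 14 without Col-0 replicate 3. Among the 6 that dropped below the window, the position went from 0.63 to 0.05 in AT1G29520, from 0.40 to 0.23 in AT4G12980 and from 0.44 to 0.18 in AT5G48060. It went from 0.39 to 0.21 in AT1G80280, from 0.64 to 0.22 in 260181_at and from 0.28 to -0.02 in 252989_at. The 2 that went above it were 266326_at, from 0.52 to 0.89, and 255284_at, from 0.64 to 1.23.

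Of the 11 that stayed, some moved toward ARF10, among them AT2G36885 (0.71 to 0.44), 250073_at (0.66 to 0.38), 263831_at (0.54 to 0.32), 251109_at (0.51 to 0.33), 255305_at (0.38 to 0.26) and AT3G04230 (0.48 to 0.41). ASPGB1 moved from 0.33 to 0.48, BGLU28 from 0.36 to 0.56 and 250484_at from 0.55 to 0.71, toward mARF10. AT4G20320 (0.27 and 0.30) and AT3G43670 (0.37 and 0.35) moved least.

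For 7 the position stayed in the window whichever Col-0 array was left out: AT3G04230, AT4G20320, AT3G43670, 251109_at, 263831_at, 255305_at and 250484_at.

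**Figure D4:**
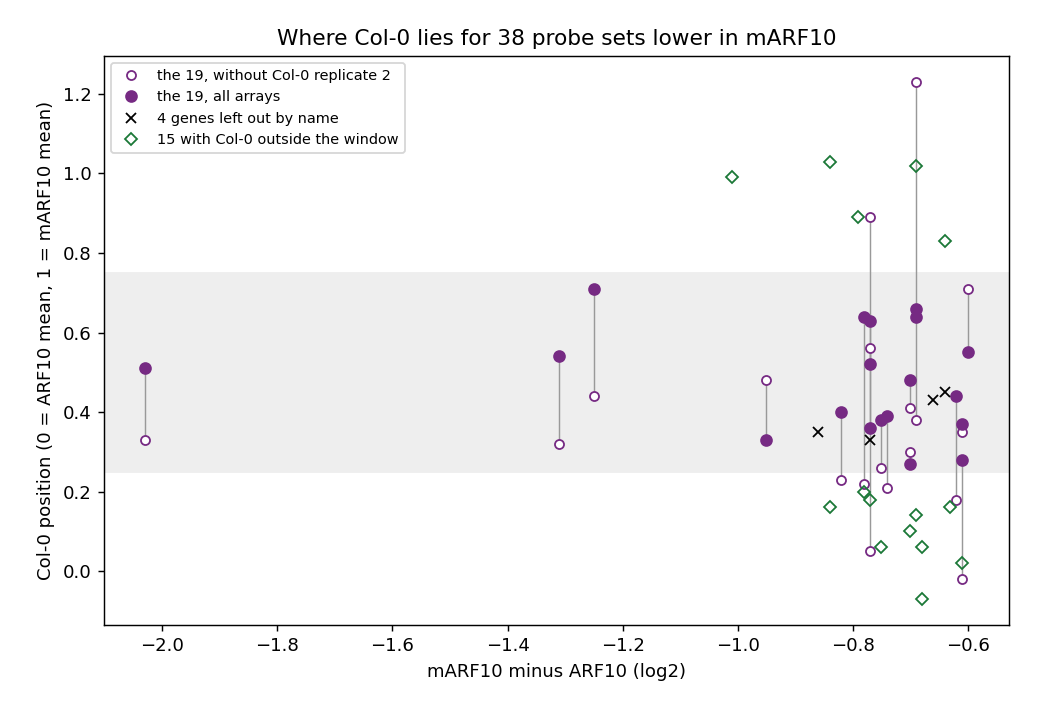
Col-0 position (vertical axis, 0 at the ARF10 mean and 1 at the mARF10 mean) against the difference between mARF10 and ARF10 (log2) for the 38 probe sets that met the other conditions; grey marks the window from 0.25 to 0.75. Filled circles are the 19 with all arrays and open circles the same without Col-0 replicate 2, when 8 leave the window.

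Without a condition on Col-0, 38 probe sets met the others. Col-0 lay nearer to ARF10 than the window in 10 of them and nearer to mARF10 in 5. Just inside the lower bound of 0.25 were AT4G20320 (0.27), 252989_at (0.28) and ASPGB1 (0.33), and just outside it 256299_at (0.20), 260143_at (0.18) and AT1G71870 (0.16). At the upper bound of 0.75, AT2G36885 (0.71), 250073_at (0.66) and 260181_at (0.64) were inside and 256020_at (0.83), 259180_at (0.89) and 259166_at (0.99) outside.

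For the difference of -0.6, the nearest inside were 250484_at, AT3G43670 and 252989_at (-0.60, -0.61 and -0.61), and the nearest outside 253252_at, ALN and 257189_at (-0.60, -0.59 and -0.58). ALN encodes allantoinase, which works in the breakdown of purines and the release of their nitrogen. For the mean of all arrays, BGLU28 (5.92) was the nearest inside and AT3G49160 (5.01) the 1 outside. AT1G29520 had the narrowest gap, 0.03 between its lowest ARF10 and highest mARF10 array, and no probe set failed on overlap alone. The mirrored conditions, with mARF10 above ARF10, were met by 274 probe sets, and Col-0 lay in the window in 134 of them.

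All 19 passed the filter on low values and entered the limma fit over all 15922 tested probe sets. In the comparison of mARF10 with ARF10, 4 of the 19 were called lower, AT4G20320, AT1G80280, 251109_at and 255305_at, and 0.0942% of all tested probe sets were called lower (0.408% in either direction). As this comparison chose the 19, nothing is read from that count. Leaving out Col-0 replicate 2 gave 16 calls, dropping replicate 1 of that group gave 9, and leaving out any 1 of the 6 transgenic arrays gave 0 to 2. Over all 15922 tested probe sets, 83, 38 and 0 to 5 were called lower in the same fits, against 15 with all arrays. Arrays of mARF10 and ARF10 did not overlap, with mARF10 lower, in 12.7% of all tested probe sets. For mARF10 against Col-0, and likewise for ARF10 against Col-0, the share called by limma was 0%, with 1697 and 739 probe sets under an unadjusted p of 0.05. With the replicate number as a block, the share called was still 0% in both, and the unadjusted numbers were 2344 and 1157. Weighting the arrays by limma's default method, which stopped with a convergence warning, called 5229 and 2001 probe sets in these comparisons, and weighting them by its gene-by-gene method called 82 and 1. In the unweighted fit, neither step of the grading was called for any of the 19.

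Gene groups of seed maturation had median differences of the other sign. Late embryogenesis abundant (LEA) genes encode hydrophilic proteins of the drying seed. Of 54 listed, 28 were tested. All 28 had a positive difference between mARF10 and ARF10, with a median of 0.75, and 2 of them were called higher. Over all 15922 tested probe sets 6811 were positive, the median was -0.02 and 0.314% were called higher. Their mean on replicates 1 to 3 was 8.45, 8.71 and 8.38 in ARF10, 8.67, 9.71 and 9.42 in Col-0 and 9.64, 9.48 and 9.19 in mARF10 seeds. Of the 30 listed storage protein and oil body genes 7 were tested, and all 7 were positive, with 1 called higher and a median of 1.46. Their mean was 7.45, 7.90 and 7.26 in ARF10, 7.99, 8.99 and 9.06 in Col-0 and 9.82, 8.96 and 9.14 in mARF10 seeds.

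Of the 59 listed photosynthesis and chlorophyll synthesis genes 13 were tested, with a median difference of -0.16 (10 of 13 negative, 0 called). Their mean was lowest on Col-0 replicate 2, at 8.94, where Col-0 replicates 1 and 3 had 10.16 and 9.92 and the transgenic arrays 9.70 to 10.32. The part of seed maturation or greening state in the pattern of the 19 was not tested.

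**Figure D5:**
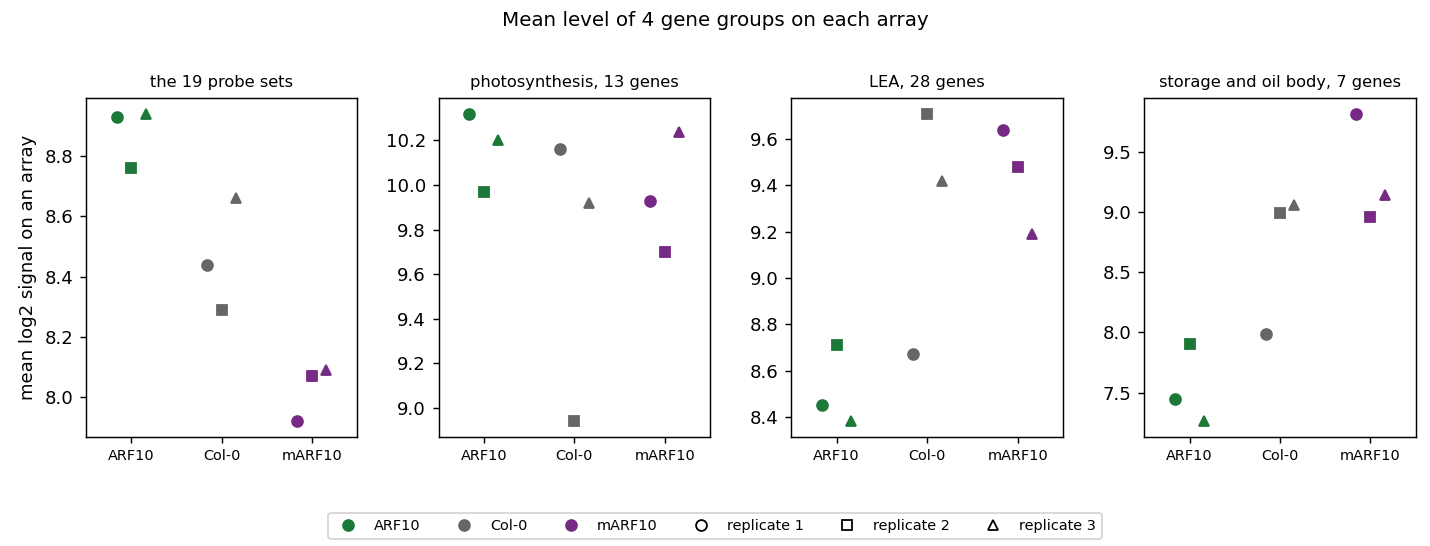
Mean log2 signal on each array (vertical axes differ and do not start at 0) of the 19 probe sets, photosynthesis genes, LEA genes and storage and oil body genes; colours mark genotypes and symbols replicate numbers. The 19 step down from ARF10 (8.76 to 8.94) to mARF10 (7.92 to 8.09) by the choice of probe sets. The LEA and storage means are higher on the mARF10 than on the ARF10 arrays, and photosynthesis genes are lowest on Col-0 replicate 2.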

How the data were processed

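The deposited table holds a log2 signal for each probe set on each array. How the authors corrected, summarised and normalized the signals, and the base of the logarithm, is not given in the sources used here. The values ran from 3.70 to 14.78, from which base 2 was taken, and with array medians of 7.06 to 7.11 no further normalization was applied. After 64 control probe sets were left out, 22746 remained. Names came from the annotation of the platform (13513 with 1 gene, 503 with several, 8730 not listed), of which 13436 matched TAIR10.1. Where a gene had several probe sets, the one with the highest mean was used.

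The 15922 probe sets with a mean at or above the 30th percentile were fitted with limma 3.58.1 in R 4.3.3 (1 mean per genotype, 9 arrays, eBayes, Benjamini-Hochberg adjustment, 2-sided, threshold 0.05), a procedure tested on simulated data. In that simulation all arrays had the same spread, so an array set apart like Col-0 replicate 2 was not covered. The 3 arrays per genotype limit the precision. The members and gene lists were chosen with earlier results of these data known. The naming rule took members with 1 annotated gene (up to 15 by difference), the 3 probe sets nearest each threshold on either side, and up to 4 further genes of a list that held a member. Unnamed members, gene families, flanking genes and sulfur genes were added after their values were seen.

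Same-numbered ARF10 and Col-0 arrays deviated together from their genotype means (r = 0.478, 0.490 and 0.195). Those of mARF10 and ARF10 did not in each pair (r = -0.082, 0.159 and 0.252), nor those of mARF10 and Col-0 (r = -0.165, 0.480 and 0.243). For ARF10 replicates 1 to 3, the highest r with a differently numbered Col-0 array was -0.065, -0.085 and 0.144. For mARF10 replicates 1 to 3 it was 0.202, -0.342 and 0.609 with Col-0, and 0.221, -0.026 and 0.291 with ARF10. A fit with the replicate number as a block was an alternative, beside other filters, scalings, a floor, other variance models and leaving out each array.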

Additional observations from a re-analysis of the deposited data

How the results depend on the processing

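With other filters, quantile normalization, median centring or a floor at a log2 signal of 4, the conditions chose 14 to 21 probe sets in place of 19. Leaving out 1 array gave 12 (without Col-0 replicate 1, 11 of them among the 19) to 31 (without mARF10 replicate 3, 18 of them among the 19); without Col-0 replicate 2 it was 21, of which 11 were among the 19. The Col-0 position of 11 to 14 of the 19 stayed in the window without 1 Col-0 array. The differences of the 10 named genes between mARF10 and ARF10 kept their sign in 100 of 100 recomputations, from -1.44 to -0.53. The conditions had set every mARF10 array below every ARF10 array, so leaving out 1 array could not reverse a sign. Nothing is read from that count. The limma count between mARF10 and ARF10 was 65, 70 with the replicate block, 1212 with limma's array weights by their default method and 784 by the gene-by-gene method. The default method stopped with a convergence warning, and the gene-by-gene method was added after its counts were seen. It ran from 1 (without ARF10 replicate 3) to 268 (without Col-0 replicate 2), and was 173 without Col-0 replicate 1, 5 and 3 without ARF10 replicates 1 and 2, and 2, 26 and 10 without mARF10 replicates 1, 2 and 3. Of the 19, 4 were called lower, 6 with the replicate block, and 18 and 17 with the default and gene-by-gene weights. Without 1 array, where fewer arrays enter, it was 0 (without ARF10 replicate 2, ARF10 replicate 3 or mARF10 replicate 1) to 16 (without Col-0 replicate 2). Over all tested probe sets 15 were called lower, 14 with the replicate block, and 545 and 327 with these weights. Without 1 array that number was 0 to 83. Between mARF10 and Col-0 the count was 5229 with default and 82 with gene-by-gene weights, and 0 to 14 without 1 array. Between ARF10 and Col-0 it was 2001 with default weights, 1 under each of quantile normalization, eBayes with trend and robust, and gene-by-gene weights, and 0 to 19 without 1 array; the replicate block gave 0 in both. The cause of these shifts was not tested. Settings for the comparisons with Col-0, and leaving out Col-0 replicate 1 or 3 for the position, were chosen after seeing the data.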
